A study of Saccharomyces cerevisiae with 14 samples.

Results

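The genes described here are the single Gag and Gag-Pol rows of the Ty1 and Ty2 retrotransposons of budding yeast, read copy by copy. A row was taken where the note of the R64 reference annotation names a TYA Gag or TYA-TYB gene that lies inside an annotated complete Ty1 or Ty2 element. The rule found 80 rows among the 6470 of the deposited count table, in 41 elements. They are 31 Gag-only and 29 Gag-Pol rows of Ty1 and 10 rows of each kind of Ty2. The choice used the annotation alone and no measured value.

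RNA was counted in 14 libraries of a haploid MATa strain of Saccharomyces cerevisiae. All groups share its genotype, with his3D::kanMX4 and his3D1 at HIS3, a PDC1-RFP-CaURA3MX4 fusion, can1D::STE2pr-SpHIS5, lyp1D, ura3D0 and LEU2. Colonies were precultured for 24 h in 10 mL of SC medium at pH 4, 30 °C and 200 rpm, then brought to OD 0.05 in 50 mL with 0 or 50 mM metformin, a biguanide drug used in type 2 diabetes. The groups were exponential cultures without (n = 4) and with metformin (n = 4) and late stationary cultures without (n = 3) and with metformin (n = 3). The series title names retrotransposons, metformin and chronological aging, the survival of cells that no longer divide. The labels give 1 batch for all libraries, made as directional libraries after ribosomal RNA depletion. They name individual colonies as the source of precultures but do not say that each library came from its own colony, so the p-values describe only how these samples vary, and that spread may be technical. Only the Ty copies of the reference genome can be described, and the copies that this strain carries were not given.

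Ty1 and Ty2 are retrotransposons that copy themselves through an RNA intermediate inside a virus-like particle. A copy is bounded by long terminal repeats, of which the upstream one holds the start of transcription. TYA encodes Gag, the coat protein of the particle, and TYB encodes Pol, which is cut into protease, integrase and reverse transcriptase. Pol is made only as a fusion to Gag, when the ribosome slips forward by 1 base at the end of TYA, so both products come from the same RNA. Most new Ty1 copies insert upstream of genes transcribed by RNA polymerase III, such as tRNA genes. Here 31 of the 41 elements lay within 1 kb of an annotated tRNA gene, on either side and either strand. The share of other genes this near to a tRNA gene was not computed.

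The slippery heptamer was read from the reference for 28 Ty1 and 10 Ty2 Gag-Pol rows and is shown because it is where a Gag-only row and a Gag-Pol row of 1 element part. The capitals mark the heptamer, and the sequences are RefSeq R64, sense strand. The first Ty1 form was found in 13 copies, the second in 13 and the third in 2, and all 10 Ty2 copies shared a single form. The heptamer ended 14 bases before the end of the Gag row in Ty1 and 20 bases before it in Ty2.
Ty1 form in 13 copies, as in YBL005W-B: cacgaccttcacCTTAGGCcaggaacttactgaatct
Ty1 form in the other 13 copies, as in YBR012W-B: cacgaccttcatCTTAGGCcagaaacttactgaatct
Ty1 form in 2 copies, as in YDR098C-B: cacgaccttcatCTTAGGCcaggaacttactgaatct
Ty2 form in 10 copies, as in YBL100W-B: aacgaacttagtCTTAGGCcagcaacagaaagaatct

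Copies are told apart by few bases. Each Gag-Pol row was compared over the stretch that no other row overlaps with the same stretch of its most similar copy, and the identity ranged from 98.4% to complete identity over 39 rows. YNL284C-B, the row with the largest change between phases, differed from YBL005W-B at 46 bases, and the 60 bases with the densest differences are shown with those bases in capitals. The same is shown for YJR027W and YPR137C-B, which differed at 35 bases.
YNL284C-B, chrXIV:99393-99452, minus strand: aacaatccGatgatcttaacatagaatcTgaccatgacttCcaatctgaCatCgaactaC
YBL005W-B, chrII:224110-224169, plus strand: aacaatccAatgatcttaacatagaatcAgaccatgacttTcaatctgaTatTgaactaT
YJR027W, chrX:477711-477770, plus strand: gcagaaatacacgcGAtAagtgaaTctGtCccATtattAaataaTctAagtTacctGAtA
YPR137C-B, chrXVI:805259-805318, minus strand: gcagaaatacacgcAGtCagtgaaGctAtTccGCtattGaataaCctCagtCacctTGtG

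The upstream ends of the elements fell into 4 sequence types over their first 200 bases, and an example of each is printed because copies of the same type can be set beside each other in the phase comparison. The capitals mark TGAAACG, spelled like a form of the pheromone response element that the factor Ste12 binds.
YPR158C-D element, chrXVI:856355-856554, minus strand: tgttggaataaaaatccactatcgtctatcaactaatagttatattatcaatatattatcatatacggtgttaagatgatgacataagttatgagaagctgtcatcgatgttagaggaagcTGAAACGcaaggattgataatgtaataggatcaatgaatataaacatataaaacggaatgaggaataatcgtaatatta
YNL284C-B element, chrXIV:102324-102523, minus strand: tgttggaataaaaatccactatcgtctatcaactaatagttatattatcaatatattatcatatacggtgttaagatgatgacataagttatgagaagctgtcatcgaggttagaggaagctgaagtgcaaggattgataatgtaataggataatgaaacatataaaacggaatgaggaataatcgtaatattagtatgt
YAR009C element, chrI:165963-166162, minus strand: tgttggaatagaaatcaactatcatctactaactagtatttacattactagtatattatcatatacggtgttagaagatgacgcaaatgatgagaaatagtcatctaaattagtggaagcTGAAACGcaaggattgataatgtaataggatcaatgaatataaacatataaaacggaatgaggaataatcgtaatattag
YDR261C-D element, chrIV:992443-992642, minus strand: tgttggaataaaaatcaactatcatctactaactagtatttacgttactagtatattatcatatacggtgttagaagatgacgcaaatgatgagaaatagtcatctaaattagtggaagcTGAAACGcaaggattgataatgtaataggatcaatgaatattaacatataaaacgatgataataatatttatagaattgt
The first type was shared by 8 Ty1 elements, the second by 8 Ty1 elements, the third by 5 Ty1 elements, and the last by 8 Ty1 elements and all 10 Ty2 elements, each within 4 bases of the example. TGAAACG was absent from these 200 bases in the 8 elements of the second type. The printed example of this type holds TGAAACA, which differs from TGAAACG only at the last base and was not counted. The absence is therefore of the spelling TGAAACG alone. In the 600 bases around the start of a row, of which 300 lie before it, on both strands, TGAAACG was found at least once in 26 of 28 Ty1 and 10 of 10 Ty2 Gag-Pol rows and in 7.06% of the 5933 other rows. CATTCC, spelled like the site of the partner factor Tec1, was found in 20 of 28 Ty1, in 1 of 10 Ty2 and in 22.0% of the other rows. These motifs do not overlap each other in spelling, and a match is a description of letters.

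Libraries held 43897221 to 59443572 gene counts, and the 80 rows together took 0.102% to 0.153% of them in exponential and 0.123% to 0.167% in stationary cultures. Markers were read for the labelled cell type. MFA1, MFA2, STE2, BAR1 and AGA2 had 99 to 42999 reads per library, while MF(ALPHA)1 and MF(ALPHA)2 had 2 to 86, STE3 218 to 736 and SAG1 652 to 1204. The markers were compared between phases in CPM, the TMM-scaled share of a library's gene counts. Each of the 6 stationary-phase markers (SNZ1, SNO1, SPG1, SPG4, HSP12, HSP26) was higher in all stationary than in all exponential libraries. Each of the 4 growth markers (CLN2, NSR1, RPL3, RPS3) was lower in them. So were MFA1, MFA2, STE2, BAR1 and AGA2, while MF(ALPHA)1, MF(ALPHA)2, STE3 and SAG1 were higher. In stationary libraries AGA2 had 3.11 to 4.73 CPM, below STE3 at 13.0 to 17.8 and SAG1 at 19.2 to 30.4 CPM. BAR1, at 13.8 to 22.3 CPM, overlapped both. Reads that the counting set aside as overlapping several rows made up 0.411% to 0.473% of all reads in exponential and 1.95% to 2.13% in stationary libraries. Reads aligned to several places made up 6.11% to 6.84% and 1.12% to 1.40%. In reads, the first class held 214169 to 1191370 per library, more than the 46568 to 92016 of the 80 rows. How many of these set-aside reads came from Ty RNA is not known, so every level below is of reads that were assigned to 1 row alone, and the part of these classes in the results was not tested.

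Most reads were assigned to Gag-Pol rows. Of the 41 Gag-only rows, 39 lie wholly inside another row on the same strand, and all 39 had 0 reads in all 14 libraries. For assigned reads this allows up to 3 in each, which covers counting error only. It puts no bound on reads set aside as overlapping several rows. A read inside such a row overlaps both rows, so these zeros and the Gag-Pol counts do not compare Gag RNA with Gag-Pol RNA. The Gag-Pol values come from the stretch downstream of Gag. The 2 Gag-only rows that stand free, YAR010C and YLR256W-A, both had reads, and so did all 39 Gag-Pol rows.

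YLR256W-A (chrXII:651117-652439, plus strand) is the only row of the element YLRWTy1-3 and lies downstream of HAP1, the gene of the heme-responsive activator. It had 57.5 to 81.0 CPM in the 8 exponential and 128 to 234 CPM in the 6 stationary libraries. Per kb of annotated length it had the highest level of all tested rows, with a mean over the 14 libraries of 82.3 CPM per kb. YPR158C-D came next with 46.7 CPM per kb of its overlap-free length. This order sets a Gag stretch beside a stretch downstream of Gag. In YLR256W-A 2.61% of the 100-base stretches occur once in the genome. YAR010C (chrI:164544-165866, minus strand), the Gag row of YARCTy1-1, an element that the annotation marks as mutated, had only 3 to 18 reads per library, and its sequence is identical to that of the nested Gag row YPR137C-A. YAR009C (chrI:160597-164187), the Pol row of the same element, had 8.38 CPM per kb against 0.0529 CPM per kb for YAR010C in exponential cultures without metformin. In stationary cultures without metformin these levels were 13.1 and 0.284 CPM per kb. The rows share no bases, and the Pol row stood far above the Gag row of 1 element in every group. YAR010C held 0 stretches of 50, 100, 150 or 300 bases that occur once in the genome. Reads of such a row can seldom be placed uniquely, so these levels do not compare Gag RNA with Pol RNA.

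After the filter on low counts 37 rows were tested, 35 Gag-Pol and 2 Gag-only, of which 29 belong to Ty1 and 8 to Ty2. The 43 rows that were not tested are the 39 rows at 0 and 4 Gag-Pol rows. Of these YCL019W had 2 to 19 reads per library, YDR316W-B 3 to 14, YGR161W-B 1 to 11 and YML045W 0 to 8.

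Levels of single copies differed by orders of magnitude. The highest Ty1 row was YPR158C-D (element YPRCTy1-4, chrXVI:850989-856257, minus strand). It had 94.2, 76.2, 82.9 and 94.2 CPM in exponential cultures without metformin and 81.7, 87.0, 89.1 and 135 CPM with it. In stationary cultures it had 220, 253 and 300 CPM without and 350, 273 and 442 CPM with metformin. All 6 stationary libraries stood above all 8 exponential ones, and library 4 of the exponential metformin group was the highest of its group. YGR027W-B (YGRWTy1-1, chrVII:536057-541325) had 72.0 ± 5.06 CPM (SD, n = 4) in exponential and 202 ± 31.3 CPM (n = 3) in stationary cultures without metformin. YLR227W-B (YLRWTy1-2, chrXII:593438-598706) had 67.8 ± 6.15 and 189.9 ± 30.6 CPM. The gaps between the means of these 2 rows were smaller than their SDs in both groups, but the rows were counted in the same libraries. In every library YGR027W-B had more reads than YLR227W-B. YPR158C-D, YGR027W-B, YLR227W-B and YJR027W together took 40.5% to 46.5% of the Ty1 reads in exponential libraries and 46.3% to 46.7% in stationary libraries without metformin. The Ty1 reads are here those of the 60 Ty1 rows that the rule took, without the Gag-Pol row YNL054W-B outside it.

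The lowest tested Ty1 Gag-Pol rows were YER138C with 4 to 17 reads per library and YML039W with 7 to 24. These rows differ from each other at 1 base of the overlap-free stretch. Ty2 rows reached lower levels than the top Ty1 rows, with YDR261W-B at 26.3 ± 1.88 CPM and YOR192C-B at 35.4 ± 4.17 CPM (SD, n = 4 each) in exponential cultures without metformin. Other Ty2 rows followed, with YBL100W-B at 17.0 ± 1.52 and YOR343W-B at 20.4 ± 2.10 CPM in the same group. YDR210W-B had 4.85 ± 0.446 CPM, and YFL002W-A, identical over its overlap-free stretch to YGR161W-B, had 2 to 16 reads per library.

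**Figure D1:**
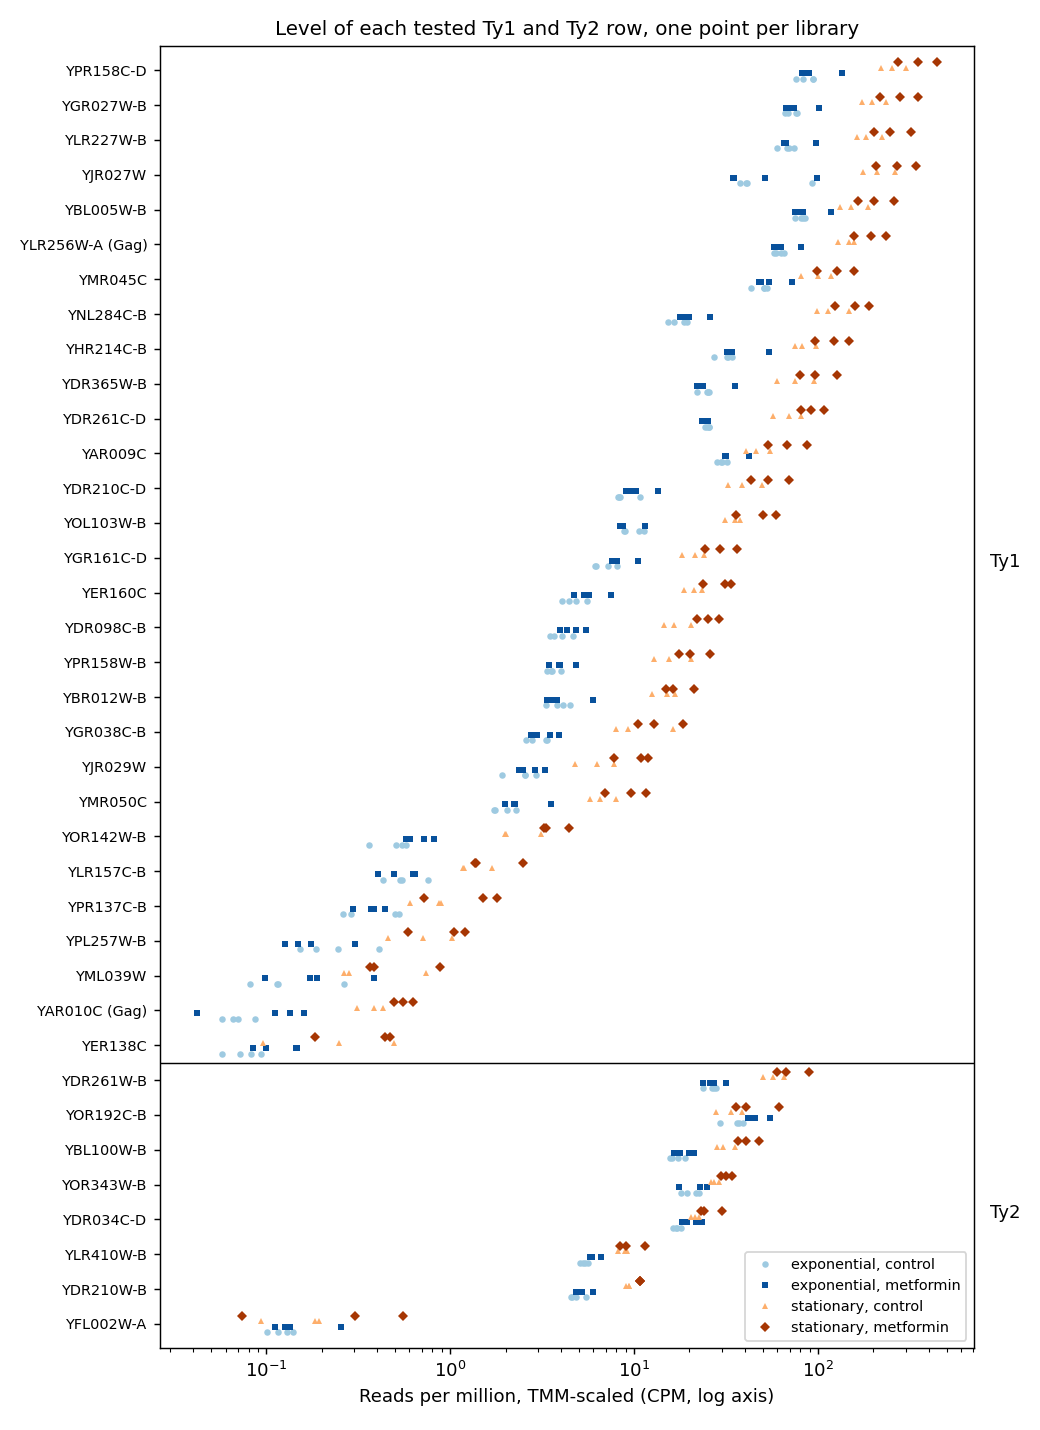
CPM (TMM-scaled, log axis) of the 37 tested rows, 1 point per library, coloured by group, with Ty1 above and Ty2 below the line. Rows run from below 1 CPM, as YER138C, to 442 CPM, as YPR158C-D, and stationary libraries stand to the right in nearly all Ty1 rows.

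The level of a row went along with how much of it is unique in the reference. For each Gag-Pol row the share of 100-base words of its overlap-free stretch that occur once in the genome was computed, and it ranged from 0.0% to 29.1% with a median of 2.99% over 39 rows. Spearman's rho between the number of unique words and the mean CPM per kb was 0.52 over the 39 rows, which share libraries, depth and most of their sequence. The 12 rows without a unique word had a median of 0.147 CPM per kb and the other rows 6.48 CPM per kb. YGR027W-B went against this, with 0 unique 100-base words and 37.2 CPM per kb, and 8.83% of its 300-base words were unique. Read length is not given in the sources used here, so low values of copies without unique words may be unassigned reads and cannot be told apart from low RNA.

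**Figure D2:**
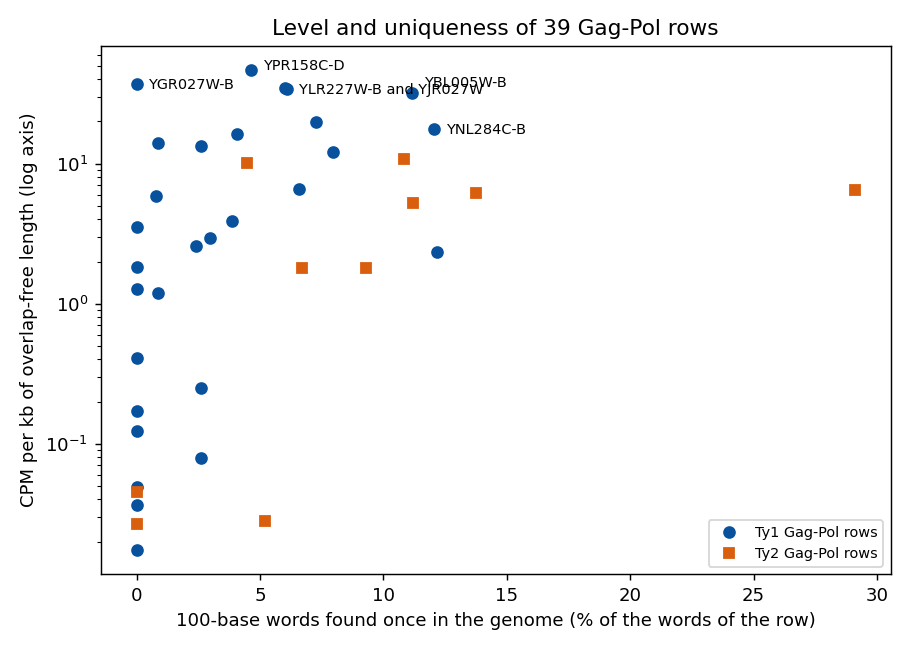
Mean CPM per kb of overlap-free length (log axis) against the percentage of 100-base words of the row that occur once in the genome, for 39 Gag-Pol rows, Ty1 as circles and Ty2 as squares. Rows at 0% run from 0.0173 to 37.2 CPM per kb, with YGR027W-B at the top.

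Stationary against exponential cultures without metformin was the first comparison. All 29 tested Ty1 rows and 6 of 8 Ty2 rows were higher in the stationary phase (edgeR quasi-likelihood test, Benjamini-Hochberg adjusted p under 0.05), and 0 rows were lower. YAR010C and YER138C passed the filter on low counts only through stationary libraries, so their calls as higher are partly set by the filter. Of all 6097 rows tested, 42.4% were called higher and 42.2% lower. The median log2 fold change was 1.61 for Ty1 rows (range 0.65 to 2.78), 0.57 for Ty2 rows (range -0.08 to 1.13) and 0.02 for all rows. TMM scaling sets the median of all rows near 0, and with library totals in its place that median was -1.02. On that scale 25 of 29 Ty1 rows were still positive and 18 of them were called higher. YAR009C alone among Ty1 was called lower, and 4 of 8 Ty2 rows were called lower. Changes are therefore relative to the median of all rows, above which 36 of 37 rows stood. The change of scale shifts all rows by nearly the same amount, so standing above the median with library totals is not separate support. The shares of all rows called higher and lower with library totals are not given here, so those counts have no background. The rows share libraries and much of their sequence and are not separate measurements.

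YNL284C-B (YNLCTy1-1, chrXIV:96964-102232, minus strand) had the largest change. It had 18.6, 15.3, 16.5 and 19.4 CPM in exponential and 98.9, 113 and 148 CPM in stationary cultures without metformin. The groups did not overlap, and the lowest stationary library was several times the highest exponential one. The log2 fold change was 2.78 (SE 0.18, edgeR adjusted p = 1.61e-09), or 6.86-fold, and 1.73 with library totals. YDR098C-B (YDRCTy1-1) had 4.64, 3.49, 3.67 and 4.03 CPM against 14.5, 16.5 and 20.3 CPM, a log2 change of 2.11 (SE 0.15, adjusted p = 5.55e-09). YDR261C-D (YDRCTy1-3, an element marked as mutated, with a shorter Gag-Pol row of 4816 bases) had 25.6, 24.2, 25.5 and 24.9 CPM against 56.8, 69.9 and 80.4 CPM. Its exponential libraries lay close together and below all stationary ones, with a log2 change of 1.46 (SE 0.11, adjusted p = 1.12e-08).

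The abundant rows rose by less than YNL284C-B. The log2 fold change was 1.57 (SE 0.19, adjusted p = 2.25e-06) for YPR158C-D, 1.49 (SE 0.17, adjusted p = 1.00e-06) for YGR027W-B and 1.48 (SE 0.17, adjusted p = 1.73e-06) for YLR227W-B. Of the Gag-only rows, YLR256W-A rose by 1.23 (SE 0.14, adjusted p = 1.02e-06) and YAR010C by 2.39 (SE 0.41, adjusted p = 8.17e-05), the latter from 4 to 6 reads to 10 to 16 reads per library. YAR009C, the Pol row of the same element as YAR010C, had the smallest change of the Ty1 rows, from 29.8, 28.4, 30.2 and 32.0 to 40.5, 46.2 and 54.6 CPM, a log2 change of 0.65 (SE 0.15, adjusted p = 0.00139), and -0.40 with library totals. The difference between the rows of this element was not tested.

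Among Ty2, YDR261W-B (YDRWTy2-3, chrIV:981462-986775) rose most. It had 26.4, 23.7, 28.1 and 27.1 CPM in exponential and 50.2, 56.9 and 65.6 CPM in stationary cultures, a log2 change of 1.13 (SE 0.14, adjusted p = 2.34e-06), and 0.08 with library totals. YDR210W-B rose by 0.94 (SE 0.10, adjusted p = 6.09e-07), YBL100W-B by 0.88 (SE 0.12, adjusted p = 5.33e-06) and YOR343W-B by 0.42 (SE 0.11, adjusted p = 0.00304), and all 3 were negative with library totals. YOR192C-B (YORCTy2-1, chrXV:704419-709732) had 36.5, 29.4, 37.0 and 38.9 CPM in exponential and 27.9, 33.6 and 38.8 CPM in stationary cultures. These ranges overlapped, and it did not pass, at -0.08 (SE 0.17, adjusted p = 0.657). YFL002W-A did not pass either, at 0.37 (SE 0.58, adjusted p = 0.550).

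The low rows rest on few reads. YER138C stood at 1.79 (SE 0.54, adjusted p = 0.00692) and YML039W at 1.58 (SE 0.58, adjusted p = 0.0214). Without stationary control library 3 the call of both was lost, at 1.09 and 0.94, and without exponential control library 3 that of YML039W was lost, at 1.37. With library totals neither passed, at 0.75 and 0.55. YPR137C-B, named here after its values were seen, had 18 to 49 reads per library. It stood at 0.99 (SE 0.36, edgeR adjusted p = 0.0211). In 4 of 14 fits that left out 1 library it lost its call, with adjusted p up to 0.0677. YOR192C-B lay between -0.21 and 0.02 as single libraries were left out, crossing 0 without stationary control library 1.

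Under metformin the same comparison between phases again called 29 of 29 Ty1 and 6 of 8 Ty2 rows higher and 0 lower, where 40.8% of all rows tested were called higher and 41.8% lower. YAR010C and YER138C are again among the higher rows, with the same limit from the filter. The median was 1.91 for Ty1 rows (range 1.03 to 2.94), 0.83 for Ty2 rows and -0.01 for all rows. With library totals the median of all rows was -1.22, 22 Ty1 rows were called higher, and 4 Ty2 rows were called lower. Here too the shares of all rows called with library totals are not given. YDR261C-D had 25.3, 23.4, 24.6 and 24.9 CPM in exponential and 91.7, 81.2 and 107 CPM in stationary cultures, without overlap, a log2 change of 1.93 (SE 0.11, edgeR adjusted p = 5.51e-10). YNL284C-B had 17.7, 18.4, 19.8 and 25.8 CPM against 158, 123 and 188 CPM, at 2.94 (SE 0.18, adjusted p = 9.23e-10). YDR098C-B stood at 2.44 (SE 0.15, adjusted p = 1.05e-09). The libraries of this comparison are separate from those without metformin.

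In the same fit YPR158C-D rose by 1.85 (SE 0.19), YGR027W-B by 1.84 (SE 0.17) and YLR227W-B by 1.79 (SE 0.18). The Gag-only row YLR256W-A rose by 1.59 (SE 0.14) and YAR010C by 2.30 (SE 0.38), while YAR009C rose by 1.03 (SE 0.15) and stood at -0.23 with library totals. Among Ty2, YDR261W-B rose by 1.41 (SE 0.14), YBL100W-B by 1.14 (SE 0.11), YDR210W-B by 1.04 (SE 0.10) and YOR343W-B by 0.53 (SE 0.11), and the last 3 were negative with library totals. YOR192C-B had 42.3, 41.6, 45.6 and 55.1 CPM in exponential and 40.8, 35.9 and 61.2 CPM in stationary cultures, which overlap, and stood at -0.01 (SE 0.17, adjusted p = 0.966). YFL002W-A did not pass at 0.99 (SE 0.52, adjusted p = 0.0919), but passed without exponential metformin library 1, at 1.30, and without stationary metformin library 1, at 1.42. YER138C stood at 1.62 (SE 0.50, adjusted p = 0.00819) and lost its call without stationary metformin library 2, at 1.38. YML039W stood at 1.36 (SE 0.56, adjusted p = 0.0349) and lost its call without any of exponential metformin libraries 2, 3 and 4 or stationary metformin library 3, at 0.85 to 1.33.

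**Figure D3:**
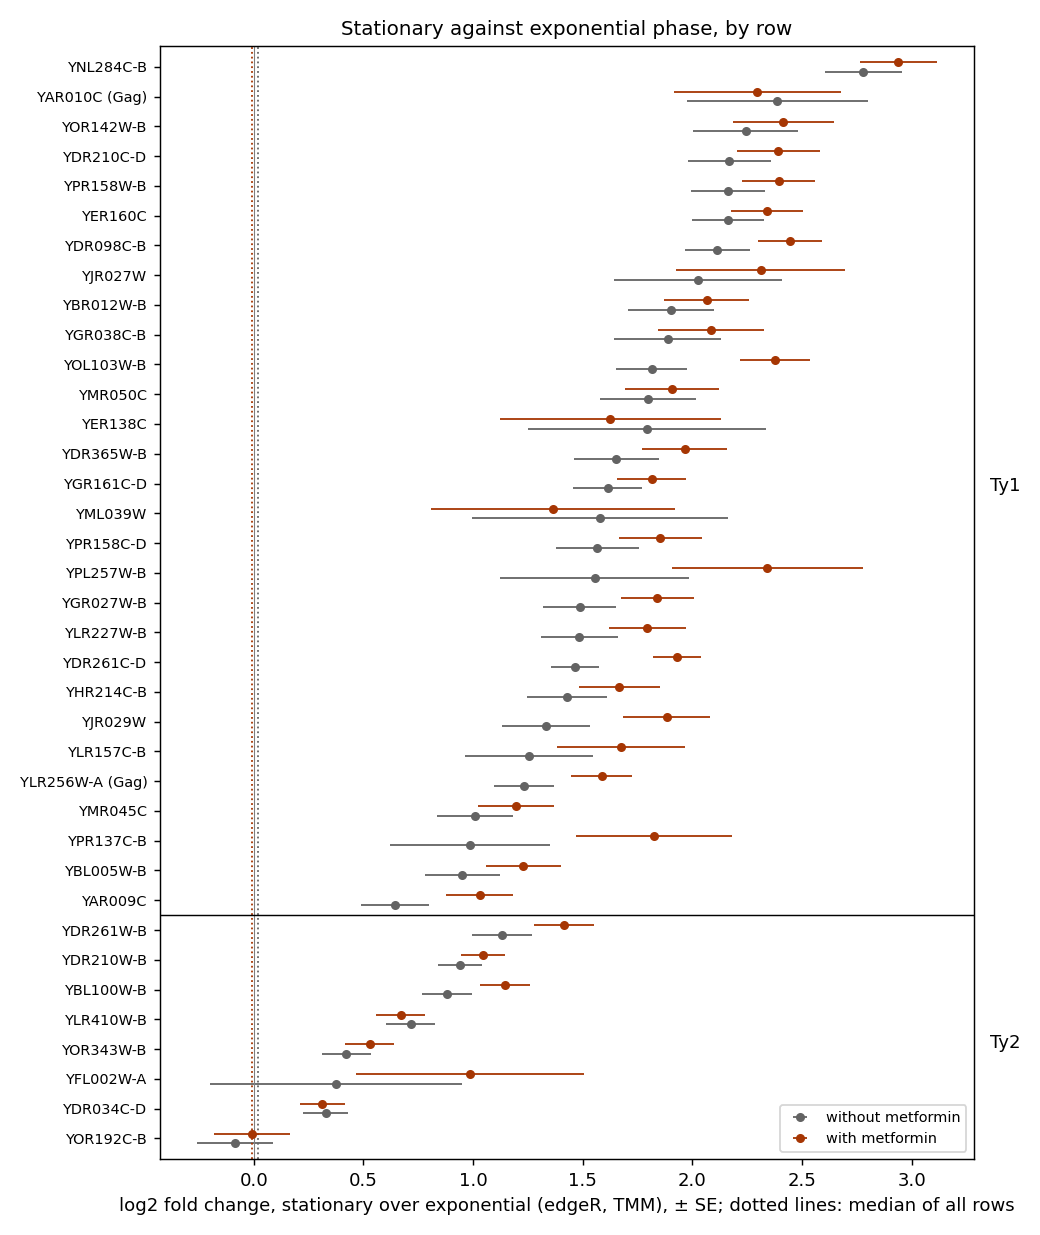
log2 fold change of stationary over exponential cultures ± SE for the 37 tested rows (edgeR, TMM), without metformin in grey and with metformin in brown, with the median of all rows as dotted lines. Ty1 rows run from 0.65 (YAR009C) to 2.78 (YNL284C-B) without metformin, and the Ty2 row YOR192C-B lies at the median of all rows.

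The make-up of the Ty1 reads changed between phases, in a measure that needs no scaling between libraries. YNL284C-B took 2.75%, 2.41%, 2.65% and 2.90% of the Ty1 reads in exponential cultures without and 2.90%, 2.63%, 3.07% and 2.83% with metformin. In stationary cultures it took 6.30%, 6.21% and 6.74% without and 6.40%, 6.27% and 6.09% with metformin. All stationary libraries stood above all exponential ones, and groups within a phase overlapped. YBL005W-B (YBLWTy1-1, chrII:221330-226598) went from 11.4% to 12.9% down to 8.20% to 8.51%, and YAR009C from 4.40% to 5.07% down to 2.50% to 2.84%. Of 29 Ty1 rows, 6 had a higher share in all 6 stationary than in all 8 exponential libraries, 4 had a lower share and 19 overlapped. With YNL054W-B added to the Ty1 reads, an alternative chosen after seeing the data, these counts were 5, 4 and 20, and YNL284C-B took 2.25% to 2.85% and 5.44% to 6.02%. YPR158C-D was among the last, with 12.0% to 14.9% and 13.7% to 14.3%. How often other rows separate the phases in this way was not counted. In CPM, 85.2% of all rows tested differed between phases without metformin at an unadjusted p under 0.05 (edgeR). Separation by phase is therefore common in these data. YBL005W-B and YMR045C were named here after their values were seen, as the Ty1 Gag-Pol rows without TGAAACG in the 600 bases around their start. Both rows belong to elements with the YNL284C-B type of upstream end, which holds TGAAACA. They rose by 0.95 and 1.01 between phases without metformin, and stood at -0.10 and -0.04 with library totals.

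Ty2 rows took a smaller part of the Ty1 and Ty2 reads in the stationary phase. The Ty2 share was 15.3% to 17.8% in exponential and 8.65% to 9.96% in stationary cultures without metformin, and 15.7% to 18.8% and 8.25% to 9.53% with it. The phases did not overlap, and the metformin and control groups of each phase did. Within the Ty2 reads, YDR261W-B went from 17.7% to 21.3% up to 28.9% to 31.7%, while YOR192C-B went from 25.6% to 32.6% down to 16.1% to 21.4%. YOR192C-B had the largest Ty2 share in all exponential libraries and YDR261W-B in all stationary ones.

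**Figure D4:**
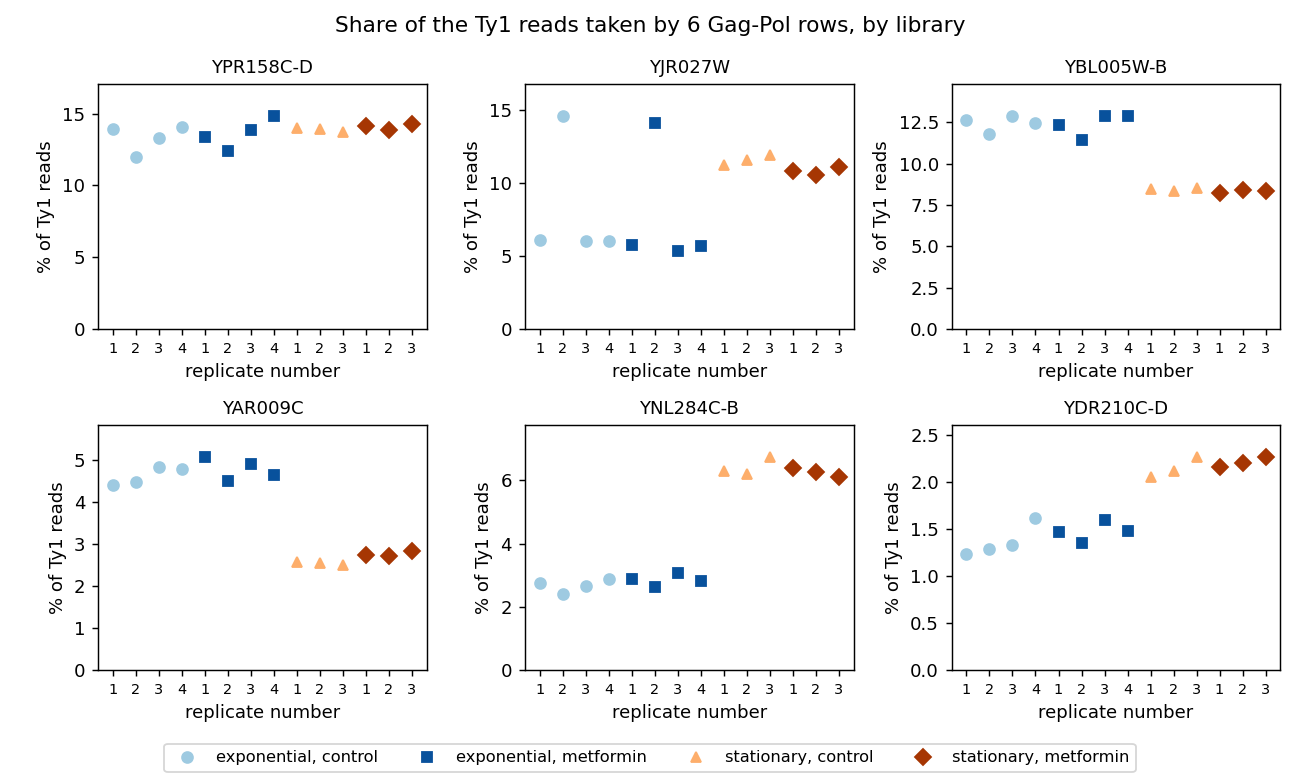
Percentage of the reads of the 60 Ty1 rows of the rule taken by 6 Gag-Pol rows in each of the 14 libraries, grouped by phase and treatment, with replicate numbers on the x axis. YNL284C-B and YDR210C-D are higher and YBL005W-B and YAR009C lower in all stationary libraries, YPR158C-D overlaps, and YJR027W stands at 14.6% and 14.1% in both exponential libraries numbered 2.

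YJR027W (YJRWTy1-1, chrX:472760-478028, plus strand), the upstream of a tandem pair of elements, stood apart in 2 exponential libraries. It had 41.0, 92.8, 37.6 and 40.6 CPM without and 35.1, 98.5, 34.3 and 51.8 CPM with metformin. Library 2 of each group stood well above the others, and in stationary cultures the row had 176, 210 and 261 CPM without and 268, 207 and 343 CPM with metformin. As a share of the Ty1 reads it took 14.6% and 14.1% in these 2 libraries, 5.33% to 6.07% in the other 6 exponential libraries and 10.5% to 11.9% in the 6 stationary ones. YJR029W, the Gag-Pol row of the downstream element of the pair, had 2.55 and 2.48 CPM in the same 2 libraries, within the 1.91 to 3.26 CPM of the other exponential ones. The log2 fold change of YJR027W between phases was 2.02 (SE 0.38, edgeR adjusted p = 0.000192) without and 2.31 (SE 0.38, adjusted p = 6.11e-05) with metformin. Without both libraries numbered 2, an alternative chosen after seeing the data, it was 2.44 (SE 0.22) and 2.77 (SE 0.22). What sets these libraries apart was not tested.

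The changes between phases were also set out by type of upstream end. Without metformin, tested Ty1 rows with the YPR158C-D type changed by 1.49 to 2.16 between phases (7 rows), with the YNL284C-B type by 0.95 to 2.78 (7 rows), with the YAR009C type by 0.65 to 1.79 (5 rows) and with the YDR261C-D type by 0.99 to 2.17 (8 rows). These ranges overlap. The 8 tested Ty2 rows, which carry the YDR261C-D type, changed by -0.08 to 1.13. The Ty1 row YDR261C-D and the Ty2 row YDR210W-B share all 200 bases, and stood at 1.46 and 0.94. Their difference was not tested, and no part of a copy outside these bases was held equal.

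Metformin in stationary cultures was compared next. In this contrast 0 of 37 rows passed in edgeR, where 0.0492% of all rows were called higher and 0.0% lower. All 37 log2 fold changes were positive, from 0.14 to 0.95, with a median of 0.44 for Ty1 and 0.29 for Ty2 rows against 0.01 for all rows, of which 53.8% were positive. At an unadjusted p under 0.05 there were 20 rows, all higher, where 8.04% of all rows were under it, and the lowest adjusted p was 0.249. DESeq2 called 0 rows with 18 at an unadjusted p under 0.05, and edgeR with the replicate block 0 with 27. With library totals 3 rows were under it, 36 of 37 were positive, and the median of all rows was -0.13. The 8.04% belongs to the TMM-scaled edgeR fit without the block. Such shares are not given here for the other fits, so their counts have no background.

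YDR261C-D, with the lowest p, had 56.8, 69.9 and 80.4 CPM without and 91.7, 81.2 and 107 CPM with metformin. All 3 metformin libraries stood above the control libraries, by less than 1 CPM at the nearest, and the log2 fold change was 0.44 (SE 0.12, edgeR adjusted p = 0.249). YDR098C-B had 14.5, 16.5 and 20.3 against 25.3, 22.1 and 28.9 CPM, without overlap, at 0.57 (SE 0.16, adjusted p = 0.251). YAR009C had 40.5, 46.2 and 54.6 against 67.9, 53.4 and 87.6 CPM, with overlap, at 0.56 (SE 0.17, adjusted p = 0.294). The Gag-only row YLR256W-A had 128, 147 and 157 against 194, 158 and 234 CPM, at 0.44 (SE 0.15, adjusted p = 0.377), with 1 metformin library close to the highest control.

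In exponential cultures 0 of 37 rows passed with metformin, where 0.0984% of all rows were called higher and 0.0% lower. At an unadjusted p under 0.05 there were 2 rows in edgeR, against 1.77% of all rows. There were 2 in DESeq2 and 8 with the replicate block, for which the shares of all rows are not given here. The 3 rows with the lowest p were YDR034C-D, YOR192C-B and YGR161C-D. YDR034C-D (YDRCTy2-1), a Ty2 row, had 17.2, 16.3, 18.0 and 16.9 CPM without and 19.5, 18.2, 21.6 and 23.3 CPM with metformin, at 0.27 (SE 0.09, adjusted p = 0.999). All metformin libraries stood above the controls. YOR192C-B had 36.5, 29.4, 37.0 and 38.9 against 42.3, 41.6, 45.6 and 55.1 CPM, again without overlap, at 0.38 (SE 0.16, adjusted p = 0.999). YGR161C-D, a Ty1 row, stood at 0.30 (SE 0.15, adjusted p = 0.999), with overlap. The median was 0.15 for Ty1 and 0.17 for Ty2 rows against 0.01 for all rows. The library numbered 4 with metformin had the highest share of reads in the 80 rows among exponential libraries, 0.153%.

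**Figure D5:**
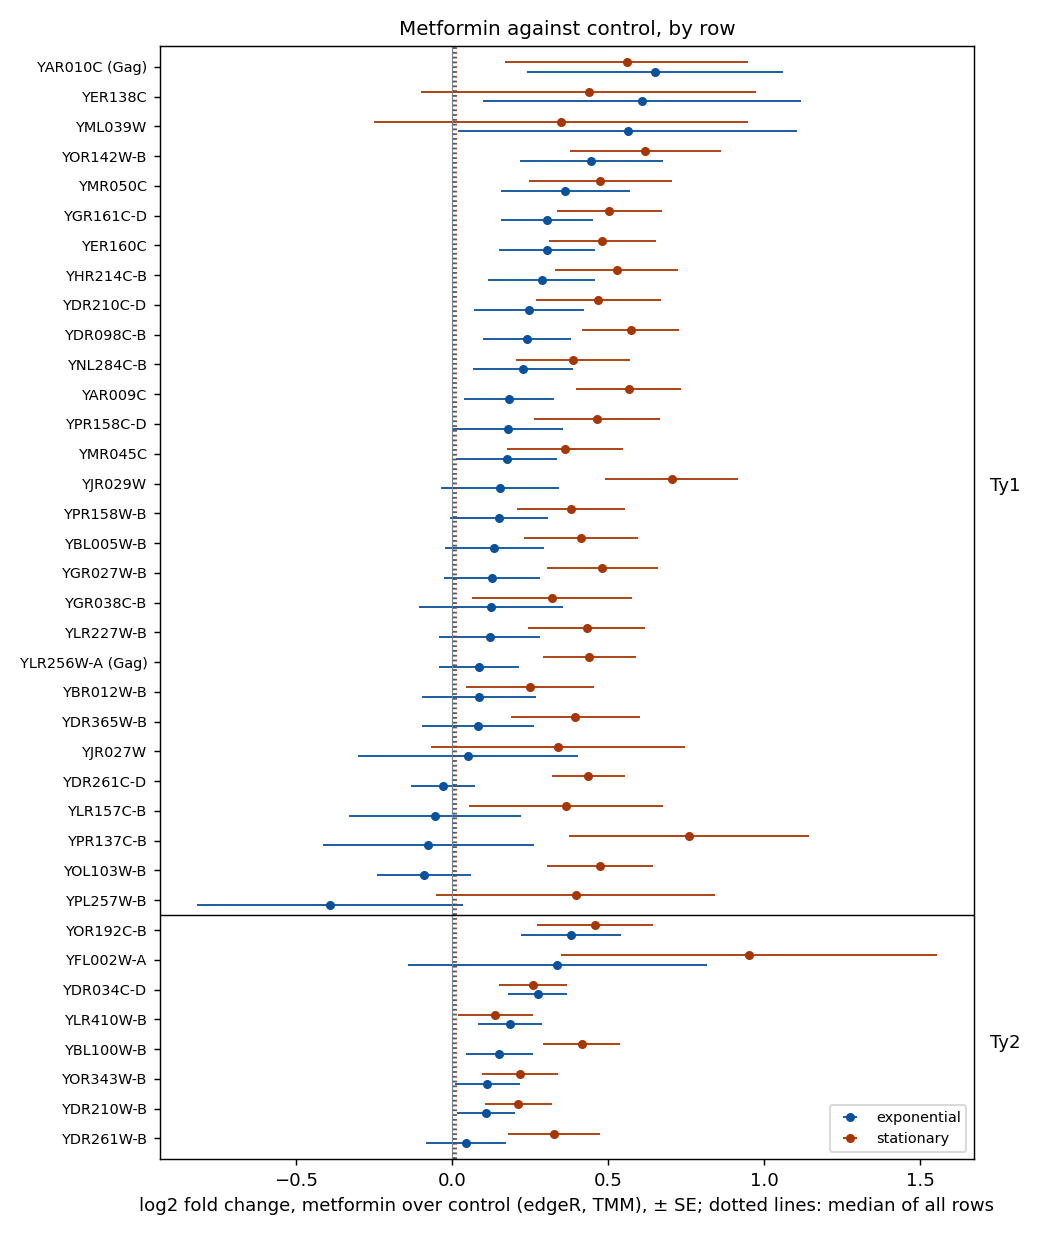
log2 fold change of metformin over control ± SE for the 37 tested rows (edgeR, TMM), in exponential cultures in blue and stationary cultures in brown, with the median of all rows as dotted lines. All stationary values are above 0 and 32 of 37 exponential ones are, and none passed adjustment.

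The difference of the metformin change between phases passed for 0 of 37 rows, where 0.0164% of all rows were called higher and 0.0% lower. At an unadjusted p under 0.05 there were 2 rows in edgeR, against 5.54% of all rows. There were 2 in DESeq2 and 5 with the replicate block, again without the shares of all rows. YDR261C-D stood at 0.47 (SE 0.16, adjusted p = 0.616), YOL103W-B at 0.56 (SE 0.23, adjusted p = 0.759) and YJR029W at 0.55 (SE 0.28, adjusted p = 0.966). This contrast shares its libraries with the 2 metformin comparisons.

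Genes that act on Ty1 were counted in 3 lists, all of whose members were tested. In the list of transcription factors and chromatin complexes, 5 of 15 were higher and 4 lower in stationary cultures without metformin. In this comparison 42.4% of all rows tested were called higher and 42.2% lower, so the counts of the lists are read against that background. Among them TEC1, the partner of Ste12 at Ty1, rose from 30.5 ± 1.88 CPM (SD, n = 4) to 51.4 ± 2.41 CPM (n = 3), a log2 change of 0.75 (SE 0.07, edgeR adjusted p = 7.76e-08), but stood at -0.29 with library totals. GCN5, the acetyltransferase of the SAGA complex, fell by 1.11 (SE 0.08, adjusted p = 6.95e-09). In the list of RNA decay and copy control genes, 7 of 17 were higher and 7 lower, with XRN1, the main 5′ to 3′ exonuclease, going from 468 ± 35.6 to 204 ± 2.28 CPM (-1.20, SE 0.09, adjusted p = 7.21e-09). Of 15 RNA polymerase III genes, again on the TMM scale, 7 were higher and 7 lower, with RPC40, a subunit that binds the Ty1 integrase, at -0.97 (SE 0.11, adjusted p = 1.93e-06). With metformin 0 members of the 3 lists passed in either phase in edgeR.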

How the data were processed

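The authors deposited raw counts per gene for 14 libraries. The tools were STAR, SAMtools and HTSeq, per the submitters' processing notes. The sources used here do not give versions, genome build, strand setting or overlap mode. All 6470 row names matched R64 locus tags, and the 5 summary rows stayed out of library sizes and tests. Sequences and annotation are RefSeq R64.

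The filterByExpr filter of edgeR (at least 10 counts, total of at least 15) kept 6097 rows. Counts were TMM-scaled and fitted with edgeR 4.0.16 (R 4.3.3) by the quasi-likelihood test, 4 groups in 1 fit, 2-sided, with Benjamini-Hochberg adjustment over all rows and a threshold of 0.05. DESeq2 1.42.0 was an alternative. The code was tested on simulated data. No libraries agreed within sampling noise.

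Columns number the last stationary replicate 5 and titles 3. The titles' numbers were used. Same-numbered control and metformin libraries of a phase had correlations of 0.10 to 0.62 in exponential and 0.14 to 0.47 in stationary cultures. Different-numbered ones had -0.65 to 0.53 and -0.47 to 0.35. Pairing by number is therefore possible but not settled, and the replicate block changed no call in the metformin comparisons.

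Rows, gene lists and tests were chosen with earlier results of these data known. Named rows were, per family, the 4 highest and 2 lowest tested Gag-Pol rows, every tested Gag-only row, the 3 lowest p per comparison, rows of the minority sign between phases, and rows under the filter. Up to 3 genes with the lowest p were eligible per gene list.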

Additional observations from a re-analysis of the deposited data

Results flagged for a closer look

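In groups of 4 libraries, 1 library can stand apart from the other 3. Over 22 named rows, the CPM and the share of the family's reads were each examined in both exponential groups, which made 88 groups, and 9 were marked by a gap above Dixon's critical value. Chance marks about 1 group in 20.

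YJR027W stood at 92.8 CPM in exponential control library 2, against 37.6 to 41.0 CPM in the other 3, and took 14.6% of the Ty1 reads there, against 6.03% to 6.07%. In exponential metformin library 2 its share was 14.1% against 5.33% to 5.75%. The cause was not tested.

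Exponential metformin library 4 was the highest of its group for several Ty1 rows. YPR158C-D had 135 CPM there against 81.7 to 89.1 CPM in the other 3 libraries, and YLR227W-B had 97.8 CPM against 65.2 to 66.7 CPM. YAR009C had 42.2 CPM against 31.0 to 31.6 CPM, and YOL103W-B had 11.5 CPM against 8.41 to 8.73 CPM.

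YFL002W-A had 0.256 CPM and 0.191% of the Ty2 reads in exponential metformin library 1, against 0.112 to 0.134 CPM and 0.0750% to 0.0942% in the others, on 16 reads.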

How the results depend on the processing

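The counts of rows called between phases, 35 higher and 0 lower in both comparisons, were 35 with DESeq2, with its size factors in edgeR and with the replicate block, and 32 to 36 with no filter, with the 2 groups alone or with single libraries left out. With library totals they were 18 higher and 5 lower without metformin and 22 higher and 4 lower with metformin. The shares of all rows called on that scale are not given here. In the metformin comparisons and their difference, 0 rows were called under every alternative run. Between phases, same-numbered libraries had correlations of 0.15 to 0.26 with metformin and -0.06 to -0.03 without it. Pairing across phases is not settled by these values, and the block changed 0 calls.

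Between phases, 10 log2 fold changes without and 9 with metformin changed sign with library totals. They were those of YBL100W-B (-0.17 without and -0.094 with metformin), YDR210W-B (-0.10 and -0.17), YFL002W-A (-0.64 and -0.25), YOR343W-B (-0.62 and -0.69), YAR009C (-0.40 and -0.23), YBL005W-B (-0.098 and -0.025), YMR045C (-0.042 and -0.060), YDR034C-D (-0.72 and -0.93), YLR410W-B (-0.33 and -0.57) and, without metformin alone, YPR137C-B (-0.063). For metformin, YLR410W-B changed sign in stationary cultures, to -0.032, and 10 values of the difference between phases changed sign. YOR192C-B, near 0 between phases, was called lower with library totals at -1.14 and -1.27. With metformin it stood at 0.018 with DESeq2, at 0.017 with its size factors and at 0.038 with the replicate block, and lay between -0.27 and 0.14 as libraries were left out (-0.21 to 0.021 without metformin). The median share of unique words in a Gag-Pol row was 2.99% for 100 bases, 1.28% for 50, 5.66% for 150 and 12.0% for 300, the last added later. Depth limits rows such as YER138C and YML039W, with at most 24 reads per library.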

Other observations

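YNL054W-B, a Gag-Pol row inside a complete Ty1 element whose note does not name TYA, fell outside the rule and was looked at after its values were seen. It had 48.0 ± 2.47 CPM (SD, n = 4) in exponential and 228 ± 36.4 CPM (n = 3) in stationary cultures without metformin, a log2 fold change of 2.25 (SE 0.16, edgeR adjusted p = 4.69e-09). With metformin it had 56.3 ± 10.6 CPM (n = 4) and 315 ± 59.2 CPM (n = 3), a log2 fold change between phases of 2.49 (SE 0.16, adjusted p = 1.65e-09). In stationary cultures metformin against control stood at 0.47 (SE 0.16, adjusted p = 0.406) and did not pass.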
